A study of Mus musculus with 6 samples.

Results

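The genes described here are 10 genes of protein folding in the endoplasmic reticulum (ER), chosen by name: the ER oxidases Ero1l and Ero1lb, the protein disulfide isomerases P4hb, Pdia3, Pdia4 and Pdia6, the chaperones Hspa5 and Hsp90b1, and Xbp1 and Dnajb9 of the unfolded protein response. All 10 were among the 22880 genes of the deposited table, and all 10 were among the 12014 genes that passed a filter on low counts and were tested. Both groups were MC-38 cells, a mouse colon adenocarcinoma line carrying green fluorescent protein (GFP), transduced with pLKO.1-puro and not passaged in vivo beforehand. In 1 group the knockdown was labelled mock (Mock, 3 libraries) and in the other HIF-1α was knocked down (HIF-1α-KD, 3 libraries). The cells were injected into the cecum wall of C57BL/6J mice, and viable cells with GFP but without CD45 (found on leukocytes) or CD31 (found on endothelium) were sorted from the tumors for RNA sequencing. The comparison addressed whether Ero1l moved together with the genes of the unfolded protein response when HIF-1α was knocked down. Whether a library came from a single tumor, whether the knockdown line was 1 clone, and the age of the mice are not given in the sources used here, so the p-values below measure the spread between these 6 samples.

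Proteins that enter the ER acquire disulfide bonds from protein disulfide isomerases, which are themselves reoxidized by ERO1 enzymes with molecular oxygen as the electron acceptor. Chaperones such as BiP, the product of Hspa5, hold unfolded chains. When unfolded chains accumulate, the sensors IRE1, PERK and ATF6 start the unfolded protein response, in which spliced XBP1 and cleaved ATF6 raise the transcription of chaperones, isomerases and degradation factors. Ero1l is also known as a hypoxia-inducible gene in tumor cells.

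Hif1a itself, the targeted gene, had normalized counts of 6914, 5424 and 4945 in Mock libraries 1, 2 and 3, whereas HIF-1α-KD libraries 1, 2 and 3 had 697.3, 3142 and 1928. All HIF-1α-KD libraries were below all Mock libraries, and HIF-1α-KD 1 was the lowest. The log2 fold change, HIF-1α-KD against Mock, was -1.82 (SE 0.46), with an adjusted p of 0.219 by limma, and without HIF-1α-KD 1 it was -1.21. Between 19845805 and 30809420 reads per library fell on genes, and the 10 most abundant genes took 6.21% to 8.23% of them. No batch was named in the labels. Of 8 markers of epithelial tumor cells, 3 passed the filter (Cdh1, Krt8 and Krt20), and the FPKM (reads scaled by transcript length and library depth) of all 8 summed to between 1.38 and 14.6 in Mock and between 1.65 and 3.13 in HIF-1α-KD libraries. Mock 3 stood apart in these markers, with 190.9 normalized counts of Krt8 against 6.16 and 11.5 in Mock 1 and 2, and without it the log2 fold change of Ero1l was -2.15 and that of Dnajb9 -0.88. Fibroblast and pericyte markers, of which 7 of 7 were tested, summed to an FPKM of 545 to 973 in Mock and 421 to 710.3 in HIF-1α-KD libraries. Those of leukocytes, 8 in number, summed to 86.8 to 95.2 in Mock and 62.3 to 337 in HIF-1α-KD libraries, and HIF-1α-KD 3 stood apart, with 8877 normalized counts of the myeloid gene Lyz2 against 1715 and 1902 in the other HIF-1α-KD libraries and 2345 to 2615 in Mock. Without HIF-1α-KD 3, the log2 fold changes were -2.03 for Ero1l, -0.63 for Dnajb9, -0.22 for P4hb, 0.40 for Pdia3, 0.60 for Pdia4, 0.44 for Pdia6 and 0.36 for Hsp90b1, and those of Ero1lb, Hspa5 and Xbp1 lay between -0.04 and 0.01.

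The sequence before the RefSeq start of Ero1l is shown first because Ero1l was the only one of the 10 genes to pass the test, followed by those members whose window held a motif of the unfolded protein response. RefSeq (GRCm38.p6) gave the 250 bases before the annotated start for all 10 genes. For each gene shown, the longest stretch outside GENCODE exons is printed, written 5′ to 3′ on the strand of the gene. Capitals mark motif matches on either strand: the HIF core (ACGTG or GCGTG), the ER stress response element ERSE (CCAAT and CCACG with any 9 bases between them), and the XBP1 element UPRE (TGACGTGG or TGACGTGA).
Ero1l, chr14:45318573-45318702, minus strand: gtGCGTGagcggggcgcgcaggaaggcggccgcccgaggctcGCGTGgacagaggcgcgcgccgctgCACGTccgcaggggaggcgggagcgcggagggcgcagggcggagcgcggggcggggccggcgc
Ero1lb, chr13:12565633-12565873, plus strand: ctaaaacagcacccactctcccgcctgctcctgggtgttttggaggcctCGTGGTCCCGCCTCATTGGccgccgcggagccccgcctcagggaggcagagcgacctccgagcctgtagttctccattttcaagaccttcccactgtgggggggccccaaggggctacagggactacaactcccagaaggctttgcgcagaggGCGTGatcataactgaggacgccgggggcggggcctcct
Pdia6, chr12:17266339-17266544, plus strand: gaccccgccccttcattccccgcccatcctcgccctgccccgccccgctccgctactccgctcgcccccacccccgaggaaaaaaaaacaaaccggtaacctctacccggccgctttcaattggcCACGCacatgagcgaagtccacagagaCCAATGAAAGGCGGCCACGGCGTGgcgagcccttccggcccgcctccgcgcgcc
Hspa5, chr2:34771840-34771969, plus strand: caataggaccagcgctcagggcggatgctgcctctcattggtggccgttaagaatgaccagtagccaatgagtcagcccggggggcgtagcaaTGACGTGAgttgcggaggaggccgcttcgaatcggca
Hsp90b1, chr10:86705510-86705694, minus strand: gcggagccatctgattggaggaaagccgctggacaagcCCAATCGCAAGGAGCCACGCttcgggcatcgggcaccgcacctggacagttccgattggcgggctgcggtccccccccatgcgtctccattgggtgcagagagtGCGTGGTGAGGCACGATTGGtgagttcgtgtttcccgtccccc

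Counted back from the RefSeq start, the Ero1l window held the HIF core 3 times, at positions -128, -88 and -63, and no ERSE or UPRE. GENCODE places the start of Ero1l farther upstream, at 45318771, with 69 bases of exon in the window, so the stretch printed lies inside the gene as GENCODE annotates it, downstream of that exon. The whole window was 80.8% G and C. At least 1 HIF core stood in 38.6% of the 32851 RefSeq windows of this length. The ERSE was rare, in 37 windows or 0.113%, and 4 of them belonged to Ero1lb, Pdia6, Hspa5 and Hsp90b1, with 2 matches in Hsp90b1. Its match in Hspa5, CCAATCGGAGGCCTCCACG from -65 to -47, lay in a part annotated as exon, so the stretch above does not contain it. The UPRE of Hspa5, from -157 to -150, contained the HIF core, and the element was found in 0.913% of windows. In Hsp90b1 the HIF core at -197 overlapped an ERSE and the one at -108 overlapped the other. Pdia6 held 3 HIF cores, as many as Ero1l, at -125, -79 and -13, and the one at -79 directly followed the ERSE. P4hb held 2 HIF cores, Pdia3 held 1, Dnajb9 held 2 that overlapped each other, and none of these had an ERSE or UPRE. The Dnajb9 window lay wholly in exons annotated to Dnajb9 and Mir5627, downstream of the GENCODE start at 44210326. The sequence before that start was therefore not scanned. The Pdia3 window also lay wholly in annotated exons. Pdia4 and Xbp1 held none of the 3 motifs. A second form of the ER stress element, ERSE-II (ATTGG and CCACG with any 1 base between them), was found in 0.0304% of windows and in no member. These matches are descriptions of letters in 250 bases, and binding was not measured.

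Ero1l (ENSMUSG00000021831, GRCm38 chromosome 14, 45283087 to 45318771, minus strand), the oxidase that recharges the isomerases, fell in HIF-1α-KD tumor cells. Its normalized counts were 8395, 4767 and 4417 in Mock libraries 1, 2 and 3 and 1251, 1499 and 1535 in HIF-1α-KD libraries 1, 2 and 3. The groups did not overlap, Mock 1 stood above the other Mock libraries, and the HIF-1α-KD libraries lay close together. The means were 5859.7 ± 2203 and 1428 ± 155 (SD, n = 3 each), a 4.10-fold lower level. On the log2 scale the difference was -1.98 (SE 0.24, 95% interval -2.53 to -1.43), with an adjusted p of 0.0242 by limma over all 12014 genes. Of these genes, 0.400% had a lower log2 fold change. The direction did not rest on Mock 1, without which the log2 fold change was -1.69 (adjusted p = 0.0452 by limma). By limma the call was lost, with the adjusted p above 0.05, without Mock 2 (0.0732), Mock 3 (0.0907), HIF-1α-KD 2 (0.079) or HIF-1α-KD 3 (0.0587). In bulk RNA, fewer cells with the transcript and less transcript per cell cannot be told apart.

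Ero1lb (ENSMUSG00000057069, chromosome 13, 12565874 to 12611396), the ERO1 paralog best known from pancreatic islets, was rare in these cells. It had 185.9, 223 and 199.3 normalized counts in Mock libraries, against 225.2, 172.7 and 166.3 in HIF-1α-KD libraries. The groups overlapped, since HIF-1α-KD 1 was above all Mock libraries and HIF-1α-KD 2 and 3 were below them. The log2 fold change was -0.12 (SE 0.22, 95% interval -0.62 to 0.38), with an adjusted p of 0.851 by limma. Per length, the ratio of Ero1l to Ero1lb FPKM was 43.4, 20.6 and 21.3 in Mock libraries, against 5.34, 8.35 and 8.87 in HIF-1α-KD libraries. Ero1l was the more abundant oxidase in all 6 libraries.

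**Figure D1:**
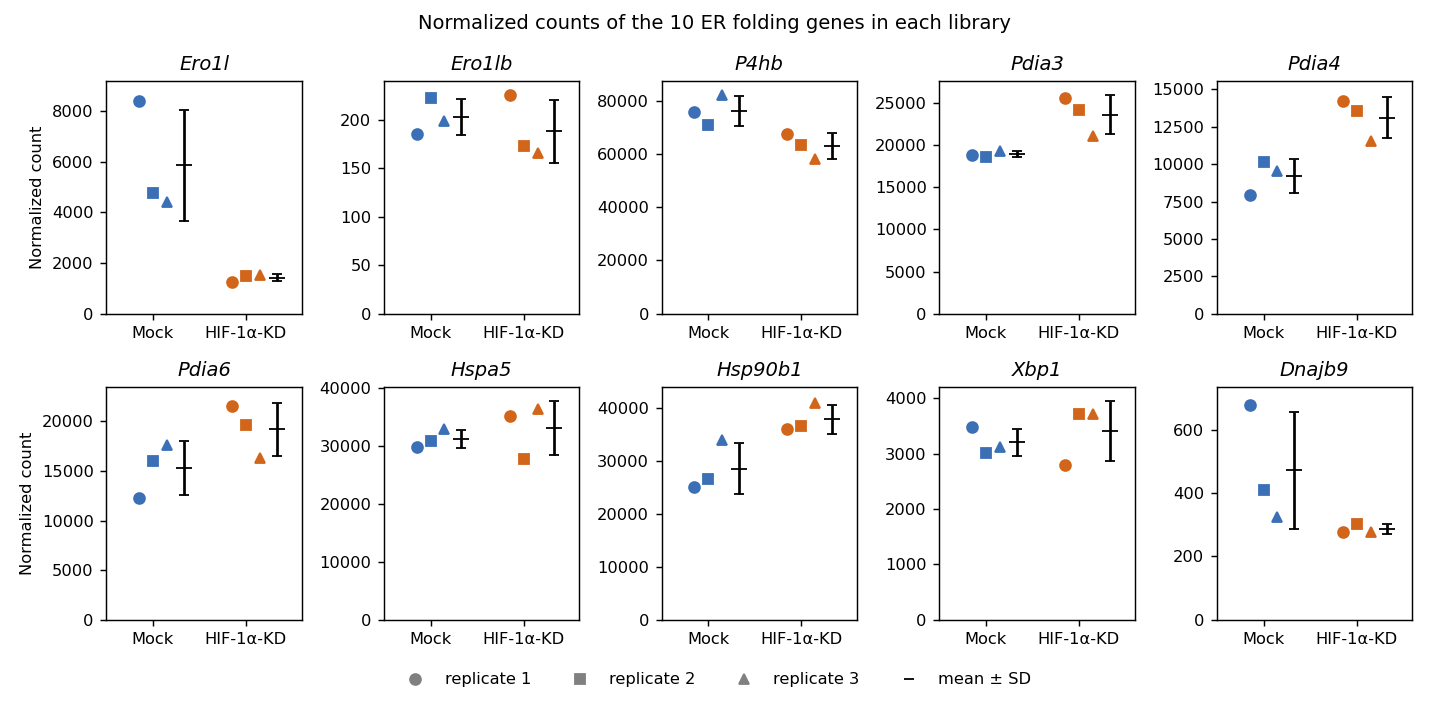
Normalized counts (vertical axes, each from 0) of the 10 genes in 3 Mock and 3 HIF-1α-KD libraries, with marker shape for the replicate number and a bar for the mean ± SD. Ero1l drops from 4417 to 8395 in Mock to 1251 to 1535 in HIF-1α-KD libraries, whereas Ero1lb, Pdia6, Hspa5 and Xbp1 overlap between the groups.

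None of the 4 protein disulfide isomerases passed the test over all genes. P4hb (ENSMUSG00000025130, chromosome 11, 120560298 to 120573253), the main isomerase of the ER and also a subunit of collagen prolyl 4-hydroxylase, had 75840, 70790 and 82110 normalized counts in Mock, against 67640, 63470 and 58040 in HIF-1α-KD libraries. All HIF-1α-KD libraries were below all Mock libraries, by a log2 fold change of -0.27 (SE 0.15, 95% interval -0.62 to 0.07), and the difference did not pass the limma test (adjusted p = 0.496).

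The other isomerases had higher means in HIF-1α-KD tumor cells. Pdia4 (ENSMUSG00000025823, chromosome 6, 47796141 to 47813430), an isomerase with an additional thioredoxin domain, had 7944, 10120 and 9516 normalized counts in Mock, against 14210, 13570 and 11570 in HIF-1α-KD libraries. The groups did not overlap, and Mock 1 was the lowest and HIF-1α-KD 1 the highest library. At 0.51 (SE 0.15, 95% interval 0.17 to 0.86) its log2 fold change was the highest of the 10 genes, with an unadjusted p of 0.0085 and an adjusted p of 0.271 by limma.

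Pdia3 (ENSMUSG00000027248, chromosome 2, 121413775 to 121438687), which works with the lectins calnexin and calreticulin on glycoproteins, had 18820, 18630 and 19320 normalized counts in Mock, against 25630, 24180 and 21110 in HIF-1α-KD libraries. The Mock libraries lay within a narrow band and all HIF-1α-KD libraries were above it. Its log2 fold change was 0.32 (SE 0.14, 95% interval 0.00 to 0.63), with an unadjusted p of 0.0476 and an adjusted p of 0.390 by limma. The window before the Pdia3 start lay in exons annotated to Pdia3 and Catsper2, and how reads there were counted is not given in the sources used here.

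Pdia6 (ENSMUSG00000020571, chromosome 12, 17266545 to 17284770), an isomerase found in complexes with BiP, had 12300, 16010 and 17630 normalized counts in Mock, against 21570, 19640 and 16320 in HIF-1α-KD libraries. HIF-1α-KD 3 lay below Mock 3, so the groups overlapped. Its log2 fold change of 0.33 (SE 0.18, 95% interval -0.08 to 0.74) did not pass the limma test (unadjusted p = 0.101, adjusted p = 0.486). Without Mock 1, the lowest library, it was 0.18.

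The share of P4hb among the isomerases was computed after the gene values were known, with no test. P4hb made up 65.2%, 60.8% and 63.1% of the summed FPKM of the 4 isomerases in Mock libraries and 52.0%, 52.2% and 53.9% in HIF-1α-KD libraries, without overlap of the groups, as for 19.2% of all genes tested by their own counts. The summed isomerase FPKM per unit of summed ERO1 oxidase FPKM was 44.2, 76.1 and 91.9 in Mock, against 286, 237 and 206 in HIF-1α-KD libraries. Ero1l made up most of the oxidase FPKM in every library, so this ratio largely restates its fall. The summed isomerase FPKM itself was 3357, 3592.5 and 3773 in Mock libraries, against 3889, 3787.5 and 3364 in HIF-1α-KD libraries, and overlapped between the groups. Neither ratio was tested.

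The chaperones and the genes of the unfolded protein response had fold changes of both signs, and none passed the test over all genes. Hspa5 (ENSMUSG00000026864, chromosome 2, 34771970 to 34777547), which encodes BiP and is the usual reporter of ER stress, had 29710, 30800 and 32860 normalized counts in Mock, against 35150, 27730 and 36240 in HIF-1α-KD libraries. HIF-1α-KD 2 was the lowest of the 6 libraries and the groups overlapped. Its log2 fold change was 0.08 (SE 0.16, 95% interval -0.28 to 0.43), with an adjusted p of 0.864 by limma, so a difference larger than 0.43 in either direction lay outside the interval.

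Hsp90b1 (ENSMUSG00000020048, chromosome 10, 86690209 to 86705509), the ER member of the HSP90 family (GRP94), had 25100, 26550 and 34020 normalized counts in Mock, against 36010, 36540 and 40970 in HIF-1α-KD libraries. All HIF-1α-KD libraries were above all Mock libraries, with Mock 3 nearest to them. The log2 fold change of 0.42 (SE 0.16, 95% interval 0.04 to 0.79) had an unadjusted p of 0.0322 and an adjusted p of 0.359 by limma.

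Xbp1 (ENSMUSG00000020484, chromosome 11, 5520659 to 5525893), the transcription factor whose RNA is spliced by IRE1, had 3486, 3010 and 3118 normalized counts in Mock, against 2791, 3717 and 3718 in HIF-1α-KD libraries. HIF-1α-KD 1 was the lowest library and the other HIF-1α-KD libraries were the highest. Its log2 fold change was 0.08 (SE 0.16, 95% interval -0.28 to 0.44), with an adjusted p of 0.862 by limma. Gene counts do not tell spliced from unspliced Xbp1 RNA.

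Dnajb9 (ENSMUSG00000014905, chromosome 12, 44205559 to 44210326), a cochaperone of BiP and a target of spliced XBP1, had 678.3, 410.5 and 324.9 normalized counts in Mock, against 275.9, 303.4 and 278.4 in HIF-1α-KD libraries. The groups did not overlap, but Mock 3 lay close to the HIF-1α-KD libraries and Mock 1 stood far above the rest, as it did for Ero1l. At -0.65 (SE 0.27, 95% interval -1.26 to -0.04), its log2 fold change had an unadjusted p of 0.0400 and an adjusted p of 0.381 by limma. Without Mock 1 it was -0.35 (unadjusted p = 0.119 by limma).

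**Figure D2:**
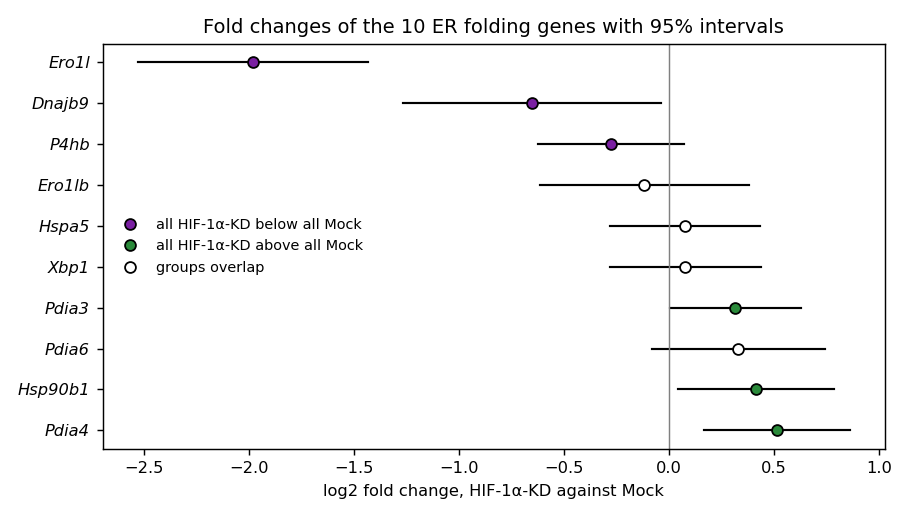
Log2 fold change of each of the 10 genes, HIF-1α-KD against Mock (horizontal axis), with the 95% interval of the limma fit as a line and the fill of the point for overlap of the groups. Ero1l stands at -1.98, apart from the other 9 genes, which lie between -0.65 and 0.51.

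Counted over the 10 genes, 1 was lower at an adjusted p under 0.05, namely Ero1l, against 0.383% of all genes tested, and none was higher, against 0.00832%. At an unadjusted p under 0.05, 3 genes were higher (Pdia3, Pdia4 and Hsp90b1), against 7.04% of all genes tested, and 2 were lower (Ero1l and Dnajb9), against 5.69%. All HIF-1α-KD libraries stood above all Mock libraries for 3 genes (10.4% of all genes tested) and below them for another 3, namely Ero1l, P4hb and Dnajb9 (8.75% of all genes tested), so that 6 of 10 did not overlap, against 19.2% of all genes tested. Ero1l was also the 1 of these genes called by edgeR (0.391% of all genes) and by DESeq2 (2.36% of all genes) on recovered reads. The median log2 fold change of the 10 genes was 0.08, and that of all genes tested was 0.02. Leaving out a library moved the median of the 10 genes to between 0.008 and 0.12. As the plot of fold changes shows, only the intervals of Ero1l, Dnajb9, Pdia3, Pdia4 and Hsp90b1 lay on 1 side of 0.

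The difference between Ero1l and each of the other 9 genes was tested within libraries, as the log2 ratio of their counts. The ratio was lower in all 3 HIF-1α-KD libraries than in all 3 Mock libraries for 9 of 9 genes, and the sizes below show how far each gene narrowed or widened the gap. Every comparison gave p = 0.1 by a two-sided exact permutation test (adjusted over the 9 comparisons, 0.1), the smallest p that this test can give with 3 against 3 libraries, so it could not reach 0.05. All 9 ratios share the Ero1l count, which did not overlap between the groups. The ratios are therefore not independent of the fall of Ero1l or of each other. Each difference in the log2 ratio is the log2 fold change of Ero1l less that of the other gene. For how many of all genes tested the ratio would separate likewise was not computed. The 9 of 9 therefore does not set these genes apart from other genes. The difference in the log2 ratio was smallest against Dnajb9 (-1.33) and largest against Pdia4 (-2.49). It was -1.86 against Ero1lb, -1.71 against P4hb, -2.30 against Pdia3, -2.31 against Pdia6, -2.06 against Hspa5 and against Xbp1, and -2.40 against Hsp90b1. Against Dnajb9, the ratio of normalized counts was 12.4, 11.6 and 13.6 in Mock libraries, against 4.53, 4.94 and 5.51 in HIF-1α-KD libraries. Mock 1, which was high in both genes, did not stand apart in this ratio. In the ratio to Pdia4 it did, with 1.06 against 0.471 and 0.464 in the other Mock libraries, and the HIF-1α-KD libraries had 0.0880, 0.110 and 0.133.

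**Figure D3:**
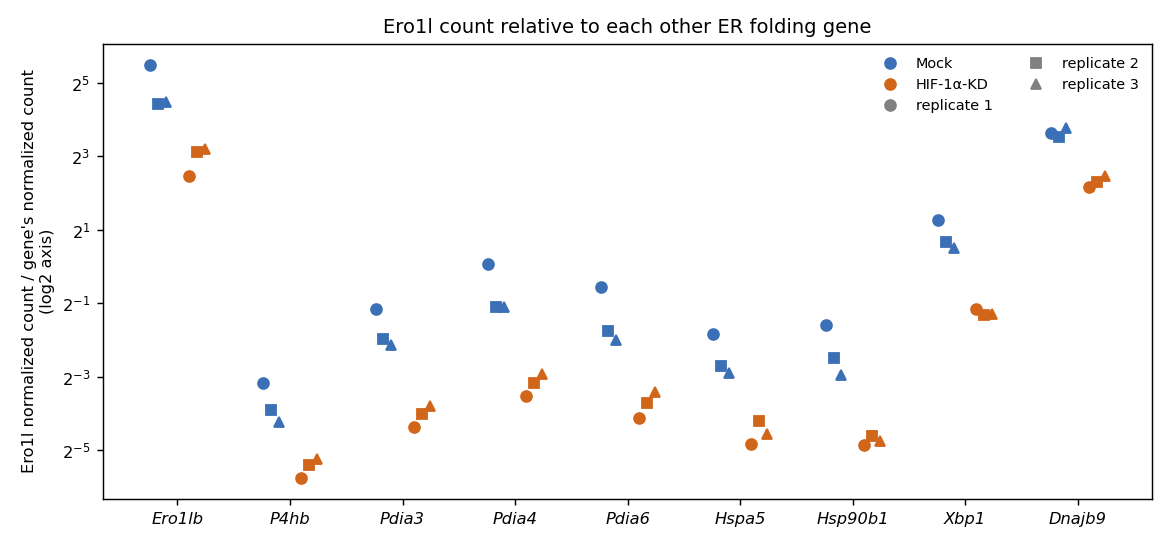
Ero1l normalized count divided by that of each of the other 9 genes (vertical axis, log2-spaced) in 3 Mock and 3 HIF-1α-KD libraries, with marker shape for the replicate number. For each gene the 3 HIF-1α-KD libraries lie below the 3 Mock libraries, and the gap is smallest for Dnajb9.

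Among themselves, the 10 genes spanned a wide range of levels per length. By mean FPKM in Mock, P4hb (2252 ± 112) was followed by Hspa5 (875 ± 51.4), Hsp90b1 (703 ± 110.4), Pdia3 (651 ± 18.1), Pdia6 (523 ± 98.7), Pdia4 (148 ± 22.6), Xbp1 (99.8 ± 5.66), Ero1l (52.8 ± 18.8), Dnajb9 (10.1 ± 3.77) and Ero1lb (1.91 ± 0.249; SD, n = 3). Neighbours overlapped between Hspa5 and Hsp90b1 and between Hsp90b1 and Pdia3, and the other neighbours did not. In HIF-1α-KD libraries Hsp90b1 (970.3 ± 86.7) and Hspa5 (965 ± 131) overlapped, and Pdia3 (845 ± 67.8) overlapped Hspa5, while Ero1l had an FPKM of 13.5 ± 1.76 and Dnajb9 of 6.38 ± 0.439 (SD, n = 3). Ero1l kept its place between Xbp1 and Dnajb9 in both groups. These FPKM rest on the deposited width of each gene, and how that width was derived is not given in the sources used here. Together, the 10 genes took 0.711%, 0.755% and 0.797% of the reads in Mock libraries and 0.826%, 0.802% and 0.801% in HIF-1α-KD libraries.

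By the root mean square difference of their log2 counts over the 6 libraries, each centered on its own mean, the tested genes most like Ero1l were Ccng2 (0.172), an atypical cyclin, Selenbp1 (0.187), a selenium-binding protein, Bnip3l (0.191), a mitophagy receptor, Gbe1 (0.249), the glycogen branching enzyme, and Pdk1 (0.266), a kinase that inhibits pyruvate dehydrogenase. The measure has a median of 1.08 over all genes. Of the other 9 genes described here, Dnajb9 was nearest, at rank 229 with 0.673, and P4hb followed at rank 2021. Ero1lb, Xbp1 and Hspa5 were at ranks 4368, 5365 and 6350, and Pdia3, Pdia6, Hsp90b1 and Pdia4 were at ranks 8791, 9695, 9837 and 10439.

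Wider lists of the same pathways gave few calls. Of 27 genes of ER oxidative folding, 24 were tested, of which 1 was lower at an adjusted p under 0.05, namely Ero1l, while the median log2 fold change was -0.01. At an unadjusted p under 0.05, 4 of the 24 were higher and 1 was lower, against 7.04% and 5.69% of all genes tested. Beside Pdia3 and Pdia4, the higher ones were Qsox2, a sulfhydryl oxidase (0.45, SE 0.17, adjusted p = 0.339 by limma), and Pdia5, a further isomerase (0.39, SE 0.17, adjusted p = 0.391 by limma). Qsox2 had 783, 842.1 and 803.3 normalized counts in Mock, against 1341, 1050 and 963.4 in HIF-1α-KD libraries, without overlap. Tmx4, a membrane thioredoxin-like protein, had a log2 fold change of -0.41 (SE 0.20, adjusted p = 0.443 by limma). Without Mock 1, Tmx4 had -0.24 and Pdia5 0.25, and without HIF-1α-KD 3, Tmx4 had -0.27.

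Of 27 ER chaperones and cochaperones, 26 were tested, of which 21 had a positive and 5 a negative log2 fold change, with a median of 0.13. Over all 12014 genes tested, 6332 were positive and 5682 negative, with a median of 0.02. None passed an adjusted p of 0.05 by limma, edgeR or DESeq2, and at an unadjusted p under 0.05, 3 were higher (Hsp90b1, Mesdc2 and Uggt1) and 1 was lower (Dnajb9), against 7.04% and 5.69% of all genes tested. Mesdc2, a chaperone of LDL receptor family proteins, had a log2 fold change of 0.45 (SE 0.17), Uggt1, the glycoprotein folding sensor, of 0.40 (SE 0.16), and Fkbp14, a prolyl isomerase that acts on collagen, of 0.48 (SE 0.21). Their adjusted p-values by limma were 0.347, 0.382 and 0.395, and without HIF-1α-KD 1 the log2 fold change of Mesdc2 was 0.29. All HIF-1α-KD libraries were above all Mock libraries for 7 of the 26 genes and below them for 1, against 10.4% and 8.75% of all genes tested.

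Of 11 sensors and transcription factors of the unfolded protein response, 10 were tested, with a median log2 fold change of 0.18, and none was called at an adjusted p under 0.05 by limma, edgeR or DESeq2. At an unadjusted p under 0.05, 2 were higher and none was lower, against 7.04% and 5.69% of all genes tested. Eif2ak3, which encodes the sensor PERK, had 554, 729.2 and 542.4 normalized counts in Mock, against 1042, 990.4 and 838.6 in HIF-1α-KD libraries. The groups did not overlap, with a log2 fold change of 0.66 (SE 0.18), an unadjusted p of 0.0056 and an adjusted p of 0.245 by limma. Creb3l1, a membrane-bound factor related to ATF6, was low, with 3.69, 40.2 and 16.9 counts in Mock, against 118, 27.6 and 54.3 in HIF-1α-KD libraries. Its groups overlapped, and its log2 fold change of 1.92 (SE 0.82) had an adjusted p of 0.384 by limma. Leaving out a library moved it to between 1.08 (without Mock 1) and 2.64 (without Mock 2). Ern1, which encodes the sensor IRE1, had a log2 fold change of 0.27 (SE 0.15, adjusted p = 0.502 by limma) without overlap of the groups.

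Downstream of PERK, 16 of 17 genes of the ATF4 branch were tested, with a median log2 fold change of 0.08, and none passed an adjusted p of 0.05 by limma or edgeR, whereas DESeq2 called 1, Ddit4 (2.36% of all genes). At an unadjusted p under 0.05, 1 was higher and 2 were lower, against 7.04% and 5.69% of all genes tested. Ddit4, an inhibitor of mTORC1 that is also known to respond to hypoxia, had 6046, 5177 and 4452 normalized counts in Mock, against 2411, 3293 and 2741 in HIF-1α-KD libraries. The groups did not overlap, with a log2 fold change of -0.89 (SE 0.17), an unadjusted p of 0.0006 and an adjusted p of 0.109 by limma. Cebpb, a stress-responsive transcription factor, had a log2 fold change of -0.58 (SE 0.22, adjusted p = 0.345 by limma) and Sesn2, a sestrin, of 0.47 (SE 0.19, adjusted p = 0.381 by limma).

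Of 21 genes of ER-associated degradation, 20 were tested and had a median log2 fold change of 0.08, and of 17 genes of ER translocation and signal peptide cleavage all 17 were tested, with a median of -0.01. Neither list held a gene at an adjusted p under 0.05 by limma, edgeR or DESeq2, and at an unadjusted p under 0.05 the degradation list held 1 higher gene and the translocation list none, against 7.04% of all genes tested. The higher gene was Sel1l, the scaffold of the HRD1 ubiquitin ligase, with 1682, 1868 and 1522 normalized counts in Mock, against 2057, 2372 and 2293 in HIF-1α-KD libraries (log2 fold change 0.41, SE 0.14, adjusted p = 0.320 by limma). Herpud1, a further component of that complex, had a log2 fold change of 0.28 (SE 0.13) and Edem2, which trims mannose from misfolded glycoproteins, of -0.24 (SE 0.14). In the translocation list, Ssr4 and Ssr3, subunits of the translocon-associated complex, had log2 fold changes of -0.30 (SE 0.15) and -0.27 (SE 0.16), and Sec61b, of the translocation channel, of 0.25 (SE 0.15). Without Mock 1 that of Ssr3 was -0.12, and without Mock 3 that of Ssr4 was -0.19.

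**Figure D4:**
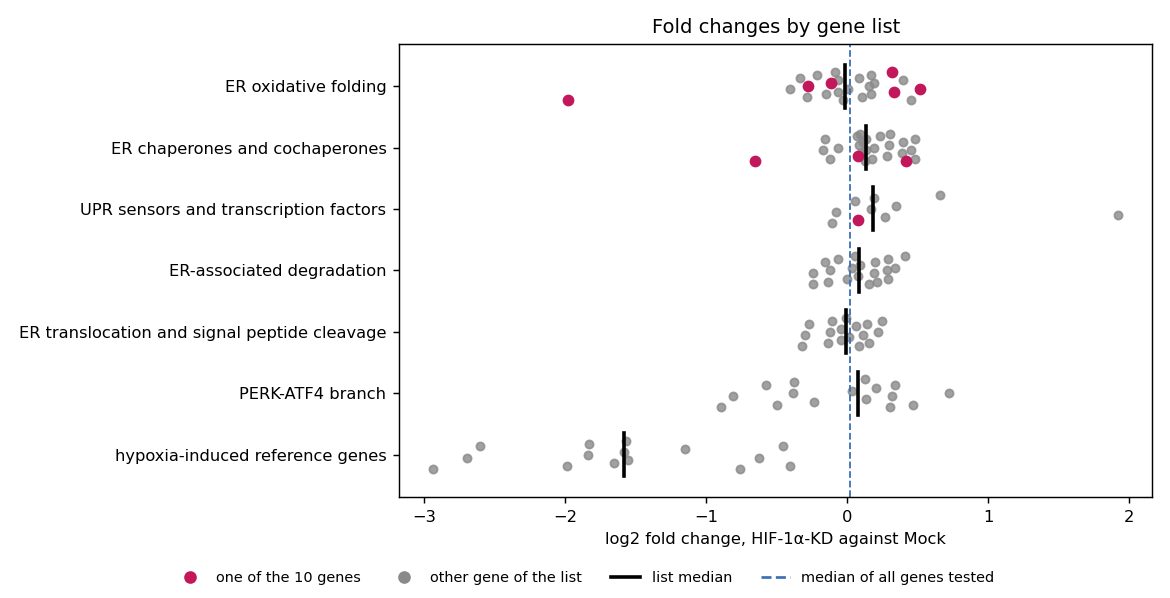
Log2 fold change, HIF-1α-KD against Mock (horizontal axis), of each tested gene of 7 lists (rows), with the list median as a bar, the median of all genes as a dashed line and the members in magenta. Ero1l lies at -1.98, below the rest of the oxidative folding list. It lies within the wide spread of the hypoxia-induced list, whose median is -1.59, as Ddit4, Dnajb9 and Cebpb also do.

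A list of 15 genes known to be induced by hypoxia served as reference, and by its making it is no independent evidence of direction. All 15 were tested and lower at an unadjusted p under 0.05 (5.69% of all genes tested), 8 of them at an adjusted p under 0.05 by limma (0.383% of all genes tested), with a median log2 fold change of -1.59. Bnip3, a mitophagy receptor, fell by 2.70 on the log2 scale (SE 0.25, adjusted p = 0.0205 by limma), Egln1, an oxygen sensor, by 1.65 (SE 0.16, adjusted p = 0.0205), and Pgk1, a glycolytic enzyme, by 1.55 (SE 0.21, adjusted p = 0.0245). These calls were also lost under some of the 14 alternatives. They held in 11 for Bnip3, 10 for Egln1 and 9 for Pgk1, against 9 for Ero1l. In the plot by list, the value of Ero1l lay below every other tested gene of the 6 ER lists. It also lay in the range of this reference list, which was wide, from -2.93 to -0.41. Ddit4 (-0.89), Dnajb9 (-0.65), Cebpb (-0.58) and further genes of the ER lists lay in that range too. By DESeq2, 10 of the 15 were called, against 2.36% of all genes.

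None of the marker genes was called at an adjusted p under 0.05 by limma, edgeR or DESeq2. At an unadjusted p under 0.05, 0 of 6 tested leukocyte markers, 0 of 2 tested plasma cell markers and 1 of 3 tested endothelial markers (Cdh5, lower) differed, against 12.7% of all genes tested. Cdh5 had a log2 fold change of -0.84, whereas Pecam1 had 0.26 and Tek, with few counts, 1.26. Plasma cells are rich in ER folding genes, and the FPKM of the 6 plasma cell markers summed to 73.4 to 118 in Mock and 91.4 to 139.9 in HIF-1α-KD libraries. Most of it was Sdc1, which other cells also express, with 2740 to 4347 normalized counts in Mock and 3130 to 4837 in HIF-1α-KD libraries. Of the other 5, Ighm reached at most 28.9, Igkc 18.2, Igj 2.46, Mzb1 2.31 and Tnfrsf17 2.40 normalized counts in any library. Of the 7 fibroblast and pericyte markers 3 were higher at an unadjusted p under 0.05 (7.04% of all genes tested), namely Cspg4 (log2 fold change 1.42), Rgs5 (1.15) and Pdgfrb (0.59). Without Mock 1 these had 0.85, 0.88 and 0.37. The remaining markers of the list had -0.38 (Dcn, the most abundant by FPKM), -0.16 (Lum), 0.03 (Pdgfra) and 0.33 (Acta2). The part of these markers in the values of the folding genes was not tested.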

How the data were processed

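RNA of 3 Mock and 3 HIF-1α-KD libraries was compared, grouped by their labels. According to the study's methods, the authors selected polyadenylated RNA, prepared stranded TruSeq libraries, aligned single-end reads with STAR, used featureCounts for counting and DESeq2 for testing. GRCh38 is named in the methods, whereas the submitters' processing notes name GRCm38, STAR and edgeR, and the deposited table carries mouse Ensembl identifiers. Versions and the strand setting of the counting are not given in the sources used here.

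The authors deposited normalized counts, a signal in which the read count of each gene was divided by 1 factor per library. The authors also deposited FPKM, which use the deposited width of each gene. A GC fraction per transcript was deposited too, and so were the log2 ratio, p-value and false discovery rate of the authors' own comparison. None of these 4 columns was used.

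Reads were recovered by removing the library factor, and 100% of values up to 300 reads were whole (within 0.02 reads). The filterByExpr function of edgeR 4.0.16 (minimum count of 10, by condition) kept 12014 genes. Because the table held normalized counts, the main test was limma 3.58.1 (trend) on log2 values of the normalized count with 1 added, as planned for that case. Fold changes are on that scale, p-values are two-sided, and adjustment followed Benjamini and Hochberg over all genes tested. edgeR and DESeq2 1.42.0 on recovered reads, TMM scaling, scaling by library size, no filter, pseudocounts of 0.1 and 10, a block for replicate number and leaving out each library were alternatives. The tests were checked on simulated counts. Intervals cover the spread between libraries.

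The 10 genes were found by their symbols in the deposited table, and Selenof was matched by its Ensembl identifier. The genes, the lists and the markers were chosen with earlier results of these data known. Named genes are the 10 genes, Hif1a, the 3 other tested genes with the smallest p of each list, and the 5 genes most like Ero1l. The marker genes named for fibroblasts and pericytes and for endothelium, the plasma cell markers, Lyz2, the epithelial markers and the P4ha1 and P4ha2 values were chosen after their values were seen. Untested list genes were Pdia2, Erp27, Gpx7, Clgn, Ern2, Derl3 and Cth. Gene positions are from GENCODE (GRCm38). Fits ran in R 4.3.3, tables were made in Python 3.11.15 with scipy 1.17.1, numpy 2.4.6 and pandas 2.3.3, and figures with matplotlib 3.10.9.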

Additional observations from a re-analysis of the deposited data

How the results depend on the processing

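The log2 fold change of Ero1l kept its sign under 14 of 14 alternatives, and its adjusted p was under 0.05 in 9 of them, with a range of 2.8e-12 to 0.0907. With a replicate block it was -1.98 (adjusted p = 0.0649 by limma), which left 0 of the 10 genes at an adjusted p under 0.05. Leaving out each library gave -2.15 to -1.69 for Ero1l and 0 to 1 of the 10 genes at an adjusted p under 0.05. At an unadjusted p under 0.05, 5 genes became 3 without the filter and 2 to 4 on leaving out a library. The number of genes without overlap was 5 to 6 under other scalings and pseudocounts. It was 6 to 8 on leaving out a library. Fewer libraries separate more readily, and no share over all genes was computed for that setting. The median of the PERK-ATF4 branch ranged from -0.10 (without Mock 2) to 0.13 on leaving out a library, and that of the ER chaperones and cochaperones from 0.09 to 0.22. The replicate block changed no call of another member at an adjusted p. The replicate numbers were not taken as pairs, since the deviations of same-numbered libraries from their group means correlated at -0.139, -0.123 and 0.0228, and no library correlated best with its own number. Leaving out 1 library of 3 assumes for the remaining ones the spread of all.

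Unadjusted p-values were under 0.05 in 14 of 14 alternatives for Pdia4, in 9 for Hsp90b1, in 8 for Dnajb9, in 5 for Pdia3 and in 0 for Ero1lb, P4hb, Pdia6, Hspa5 and Xbp1. The 10 genes kept the sign of their fold change in all 14 alternatives, with Dnajb9 between -0.88 and -0.35, Hspa5 between 0.01 and 0.20 and Xbp1 between 0.01 and 0.22. Scaling by library size moved the median of all genes from 0.02 to 0.08. The lists of oxidative folding and of translocation had medians near 0 whose sign changed, from -0.05 to 0.05 and from -0.10 to 0.05. DESeq2 called 283 genes (2.36% of 12012) at an adjusted p under 0.05, against 47 (0.391%) by limma and 47 by edgeR. The lowest of the 10 genes, Ero1lb, had 144 reads in its poorest library, and the number of 3 libraries per group limits every p given here.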

Other observations

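P4hb also serves as the shared subunit of collagen prolyl 4-hydroxylase, whose catalytic subunits P4ha1 and P4ha2 stood in the hypoxia-induced reference list and were singled out after their values were seen. P4ha2 had 4921, 5987 and 7399 normalized counts in Mock, against 3621, 4208 and 3890 in HIF-1α-KD libraries, without overlap, and a log2 fold change of -0.63 (SE 0.17, adjusted p = 0.245 by limma). P4ha1 had 12780, 9963 and 16390 in Mock, against 8986, 8999 and 10030 in HIF-1α-KD libraries, with a log2 fold change of -0.45 (SE 0.19, adjusted p = 0.381 by limma), and HIF-1α-KD 3 lay just above Mock 2. Leaving out 1 library moved P4ha1 to between -0.63 (without Mock 2) and -0.27 (without Mock 3). Among the 4 isomerases, P4hb had the only negative log2 fold change, at -0.27. None of the 3 passed an adjusted p of 0.05 by limma, whereas DESeq2 on recovered reads called P4ha2 (adjusted p = 0.0390). Whether the 3 values are linked was not tested.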
